A study of Rattus norvegicus with 12 samples.

Results

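The genes described here encode 31 lysosomal enzymes, lysosomal membrane proteins and regulators. They were chosen by symbol as a fixed list, without a cut on their values but with earlier results of these data known. Of these, 30 had a named probe and were tested among 29603 features in all, and the probes named here did not include one for Sgsh, the sulfamidase of heparan sulfate breakdown. For a gene with several probes the brightest was used. Total RNA of renal cortex was measured in 12 rats, each on its own one-colour Agilent array. The rats were male Sprague-Dawley, bought at 5 weeks of age, and fell into 4 groups of 3. Vehicle rats were given water, and the others tert-butyl alcohol (TBA), a solvent that also forms in the body from some fuel additives, at 1000 mg/kg/day, in both cases for 4 weeks. All were bled to death 24 h after the last dose, 3 vehicle and 3 TBA rats under CO2-O2 gas (the CO2-O2 arm) and 3 vehicle and 3 TBA rats under isoflurane (the isoflurane arm). A single dose and a single time were used, and cortex was taken whole, so a lower signal from fewer cells of a type and one from less RNA per cell cannot be told apart.

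Lysosomes are acidic organelles in which proteases, glycosidases and lipid hydrolases break down material that reaches them by endocytosis or autophagy. In the kidney they are most prominent in the proximal tubule, whose cells take up filtered protein through megalin and cubilin and degrade it there. The transcription factor TFEB binds a short palindromic motif in the promoters of many lysosomal genes, which links their expression, and in male rats some chemicals lead to protein droplets in proximal tubule lysosomes because a filtered urinary protein is broken down slowly.

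A sequence that TFEB binds was looked up first. It is known from promoters of many lysosomal genes, so its share in this list is a description and not a test. The motif CACGTG (an E-box, which reads the same on both strands) was counted in RefSeq promoters of the GRCr8 rat assembly, each running from 250 bases before a gene's start to 50 after it. Of the 31 members 27 had a promoter in the table, and the motif was present in 6 of them (22.2%) and in 2148 of all 33469 (6.42%). The longer form CACGTGAC, on either strand and always overlapping a CACGTG, was in 5 of 27 (18.5%) against 620 of 33469 (1.85%). The 6 promoters belonged to Lamp1 with 5 copies, Ctsd and Mcoln1 with 2 each, and Cd63, Glb1 and Sgsh with 1 each. The stretches below are shown because they carry the motif in 4 members described in what follows. Capitals mark CACGTG, and each runs 5′ to 3′ on the strand of its gene. The Lamp1 stretch, from 195 to 26 bases before the start, lies at chr16:83075089-83075258 on the minus strand. The Ctsd stretch is at chr1:206968822-206968861 on the minus strand and ends at the start, the Mcoln1 stretch is at chr12:6358218-6358257 on the plus strand and also ends there, and the Cd63 stretch, from 205 to 166 bases before the start, is at chr7:1921939-1921978 on the plus strand.
Lamp1: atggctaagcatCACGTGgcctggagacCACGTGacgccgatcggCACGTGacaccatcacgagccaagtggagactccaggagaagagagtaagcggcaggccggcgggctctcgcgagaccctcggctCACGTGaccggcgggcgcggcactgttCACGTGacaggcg
Ctsd: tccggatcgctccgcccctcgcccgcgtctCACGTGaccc
Mcoln1: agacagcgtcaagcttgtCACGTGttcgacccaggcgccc
Cd63: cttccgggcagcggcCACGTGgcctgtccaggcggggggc
A match describes these letters only, and no measurement of binding was made in these rats.

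Signals are given as log2 of the processed intensity minus the 75th percentile of the same array, so that 0 is the brightness of the probe at that percentile. The share of probes clearly brighter than background ran from 61.6% to 71.0% over the arrays, and replicate arrays correlated at 0.989 to 0.994. Of the 30 members, 29 were well above background on all 12 arrays, and the exception was Galns, on 10 arrays. All 12 proximal tubule markers, among them Slc34a1, Lrp2 and Kap, were detected on every array. The labels call the rats of a group biological replicates. Groups were compared with limma, and a gene was called when its p, adjusted by the Benjamini-Hochberg method over all 29603 features, was under 0.05.

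No member was called in any of the 7 comparisons of the design. For TBA against vehicle in the CO2-O2 arm it was 0 of 30, while 44 features in all were (0.149%). The isoflurane arm again gave 0 members, against 117 features (0.395%), and the average of both arms 0 members against 555 features (1.87%). At an unadjusted p under 0.05 the members numbered 3 in the CO2-O2 arm (10%, against 14.3% of all features), 6 in the isoflurane arm (20% against 17.8%) and 4 for the average (13.3% against 19.0%). The members' share was below that of all features in the CO2-O2 arm and for the average, and near it in the isoflurane arm.

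Unadjusted 95% intervals give a range of effects for each gene under the normalization used. Another normalization can move an effect, as for Ctsb below. The 95% interval of the averaged TBA effect lay inside a log2 change of ±0.5 for 29 of 30 members, against 77.1% of all features, and Galns was the exception. It did so for 28 members in the CO2-O2 arm (61.5% of all features) and for 22 in the isoflurane arm (60.9%). The features compared were not matched to the members for brightness. The median log2 difference over the members was 0.06 in the CO2-O2 arm and 0.07 in the isoflurane arm, where all features had 0.02 in each. The isoflurane median became -0.05 under quantile normalization and -0.04 without TBA isoflurane rat 2, so it has no settled sign. The CO2-O2 median was 0.01 without TBA CO2-O2 rat 3, and 0.11 without TBA CO2-O2 rat 1 or vehicle CO2-O2 rat 3. In the CO2-O2 arm 22 of 30 members were above 0 (53.6% of all features), and in the isoflurane arm 17 of 30 (53.5%). For the average 19 of 30 were above 0, with a median of 0.04 that became -0.01 under quantile normalization and -0.00 without TBA isoflurane rat 2. Both arms gave the same sign for 15 of 30 members (50%) and for 55.4% of all features.

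**Figure D1:**
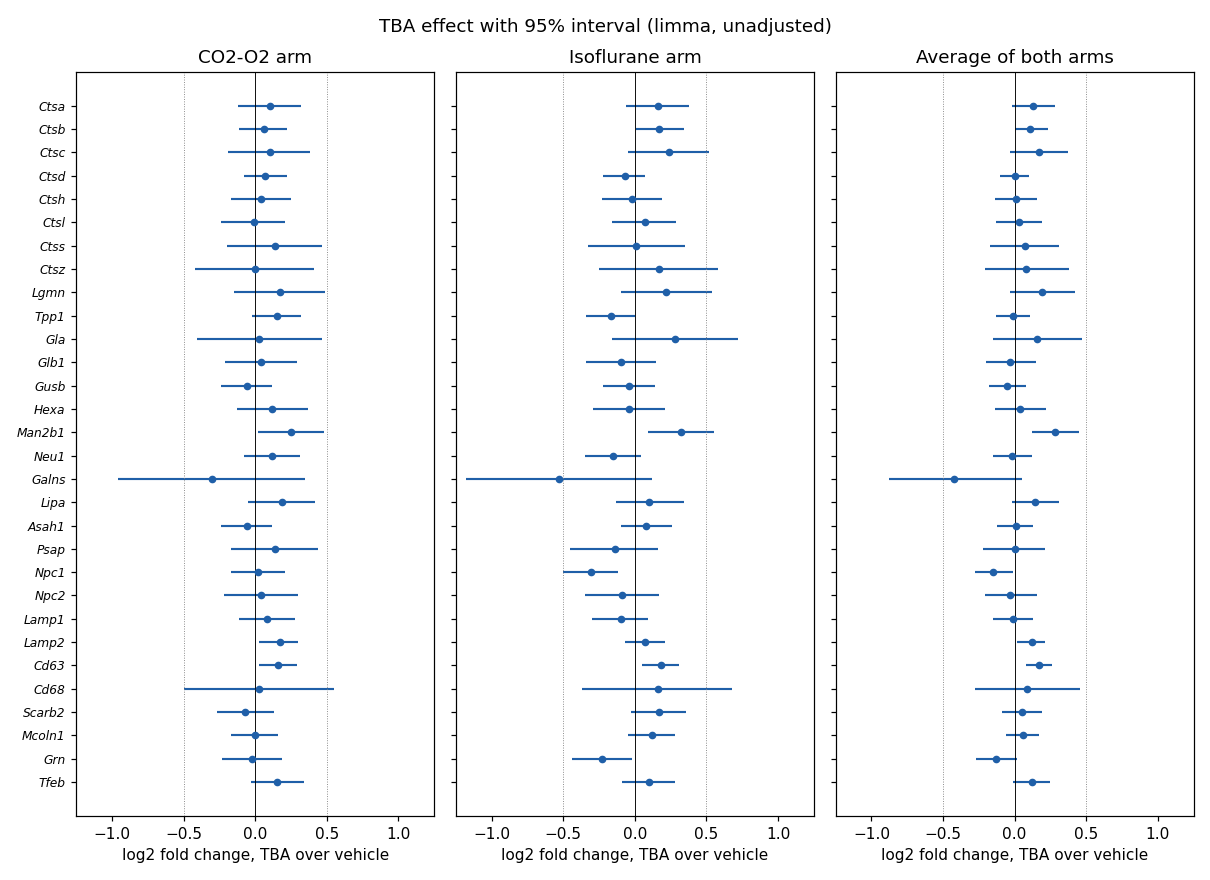
TBA effect on each of 30 lysosomal genes as a log2 fold change (x axis), in the CO2-O2 arm, in the isoflurane arm and for their average, with points for limma estimates and bars for unadjusted 95% intervals. Dotted lines stand at ±0.5, and for the average every bar but that of Galns lies between them.

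The proteases came first in role. Of the 10 tested, 8 were above 0 in the CO2-O2 arm and 7 in the isoflurane arm, with averaged effects from -0.01 to 0.19 and a lowest adjusted p of 0.272. Ctsb, a cysteine protease abundant in tubules, had log2 signals of 8.62, 8.66 and 8.61 in vehicle CO2-O2 rats, 8.62, 8.69 and 8.74 in TBA CO2-O2 rats, 8.65, 8.58 and 8.65 in vehicle isoflurane rats, and 8.83, 8.93 and 8.65 in TBA isoflurane rats. The groups overlapped in the CO2-O2 arm and touched in the isoflurane arm, where TBA isoflurane rat 3 sat at the level of the vehicle rats. The difference was 0.17 ± 0.07 (SE) in the isoflurane arm, with an adjusted p of 0.259, and 0.06 ± 0.07 in the CO2-O2 arm. Under quantile normalization the isoflurane value was -0.07.

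Ctsd, the main aspartic protease, had signals of 6.54, 6.62 and 6.56 in vehicle CO2-O2 rats, 6.59, 6.61 and 6.73 in TBA CO2-O2 rats, 6.59, 6.67 and 6.57 in vehicle isoflurane rats, and 6.48, 6.63 and 6.50 in TBA isoflurane rats. Vehicle and TBA rats overlapped in both arms, and the averaged effect had an interval of -0.10 to 0.10. The isoflurane difference of -0.07 ± 0.07 was called with normexp background correction alone, at -0.23 and an adjusted p of 0.0484. That setting called 1303 features in the isoflurane arm, against 117 without it. Ctsl, a cysteine protease, read 7.31, 7.10 and 7.40, then 7.20, 7.17 and 7.40 in the vehicle and TBA rats of the CO2-O2 arm, and 7.20, 7.24 and 7.29, then 7.34, 7.44 and 7.16 in those of the isoflurane arm. Its groups overlapped in both arms, and the averaged effect was 0.03 ± 0.07.

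Lgmn, the asparaginyl endopeptidase that trims cathepsins, was 6.43, 6.36 and 6.28 in vehicle CO2-O2 rats and 6.52, 6.36 and 6.70 in TBA CO2-O2 rats. It was 6.67, 6.35 and 6.24 in vehicle isoflurane rats and 6.82, 6.72 and 6.38 in TBA isoflurane rats. One TBA rat in each arm lay among the vehicle rats. Its averaged effect of 0.19 ± 0.10 had an adjusted p of 0.335. Ctsc, which activates granule serine proteases, was 4.49, 4.50 and 4.34 in vehicle isoflurane rats and 4.56, 4.80 and 4.67 in TBA isoflurane rats, with no overlap (0.24 ± 0.13, adjusted p = 0.366). Under CO2-O2 it was 4.40, 4.39 and 4.48 against 4.22, 4.57 and 4.77, and TBA CO2-O2 rat 1 was the lowest of all 6.

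Tpp1, the tripeptidyl peptidase missing in a childhood neuronal ceroid lipofuscinosis, had the largest difference between the arms of the 10 proteases, of which Ctsd, Ctsh, Ctsl and Ctsz also had opposite signs in the 2 arms. It was 2.77, 2.78 and 2.85 in vehicle and 2.92, 2.93 and 2.99 in TBA rats of the CO2-O2 arm, without overlap, and 2.94, 3.08 and 2.79 against 2.81, 2.79 and 2.70 in the isoflurane arm, with overlap. The effects were 0.15 ± 0.08 and -0.17 ± 0.08, and their difference was -0.32 ± 0.11 with an adjusted p of 0.310. Its 2 probes gave the same signs. The other proteases, Ctsa, Ctsh, Ctss and Ctsz, had averaged effects between 0.01 and 0.13.

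The glycosidases and sulfatases held the member with the highest averaged effect and the one with the lowest. Man2b1, the acid alpha-mannosidase that trims N-glycans, was 6.12, 5.94 and 6.16 in vehicle CO2-O2 rats and 6.18, 6.31 and 6.47 in TBA CO2-O2 rats. It was 6.17, 6.20 and 5.98 in vehicle isoflurane rats and 6.47, 6.54 and 6.30 in TBA isoflurane rats. Every TBA rat was above every vehicle rat of its arm, narrowly so for TBA CO2-O2 rat 1. The effect was 0.25 ± 0.10 in the CO2-O2 arm (adjusted p = 0.321), 0.32 ± 0.10 in the isoflurane arm (adjusted p = 0.158) and 0.28 ± 0.07 on average, a fold of 1.22, with an adjusted p of 0.0802. A second probe gave 0.25 on average. The average passed the threshold with normexp background correction (adjusted p = 0.0371) and with a trend and robust spread (adjusted p = 0.0422). Those settings called 977 and 1091 features for the average, against 555 without them. Over all alternatives the adjusted p of Man2b1 for the average ran from 0.0371 to 0.193.

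Neu1, a sialidase, was 2.51, 2.64 and 2.60 in vehicle and 2.78, 2.67 and 2.65 in TBA rats of the CO2-O2 arm. The groups all but touched, and the effect there was 0.12 ± 0.09 (adjusted p = 0.580). Under isoflurane it was 2.76, 3.06 and 2.89 against 2.80, 2.64 and 2.81, which overlapped. Galns, a sulfatase of keratan sulfate, was the dimmest member and had the widest interval, with an averaged effect of -0.42 ± 0.21 and an interval from -0.88 to 0.05. Gla, Glb1, Gusb and Hexa had averaged effects between -0.05 and 0.16.

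Among the 5 lipid hydrolases, activators and cholesterol exporters, Lipa and Npc1 each separated in one arm. Lipa, the acid lipase that frees cholesterol from its esters, was 3.02, 3.20 and 3.02 in vehicle and 3.30, 3.28 and 3.22 in TBA rats of the CO2-O2 arm (0.19 ± 0.11, adjusted p = 0.456). Under isoflurane it was 3.17, 3.00 and 2.88 against 3.03, 3.33 and 3.00, which overlapped. Npc1, the membrane protein that exports that cholesterol, was 1.56, 1.52 and 1.56 in vehicle isoflurane rats and 1.15, 1.38 and 1.19 in TBA isoflurane rats. It was the member with the lowest p in the isoflurane arm, at -0.31 ± 0.09, a fold of 0.807, with an adjusted p of 0.118. In the CO2-O2 arm it was 1.32, 1.45 and 1.39 against 1.29, 1.35 and 1.57, an effect of 0.02 ± 0.09. The difference between the arms was -0.33 ± 0.12 with an adjusted p of 0.350, so it was not called. The 6 kept probes of Npc1 gave -0.60 to -0.08 in the isoflurane arm and -0.40 to 0.08 in the CO2-O2 arm. The lowest value in each arm came from 1 dim probe, well above background on 9 arrays. Another probe, also on 9 arrays, gave -0.20 and -0.27. The rest, on all 12 arrays, gave -0.31 to -0.08 and -0.11 to 0.08. Asah1, Psap and Npc2, which handle ceramide, sphingolipid activators and the hand-over of cholesterol to Npc1, had averaged effects between -0.03 and 0.01.

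The membrane proteins held the smallest p of the list. Cd63, a tetraspanin of late endosomes and lysosomes, was 6.40, 6.40 and 6.41 in vehicle CO2-O2 rats and 6.51, 6.62 and 6.56 in TBA CO2-O2 rats. It was 6.45, 6.47 and 6.43 in vehicle isoflurane rats and 6.67, 6.68 and 6.54 in TBA isoflurane rats. All 6 TBA rats lay above all 6 vehicle rats, by a small margin. The effect was 0.16 ± 0.06 in the CO2-O2 arm (adjusted p = 0.256) and 0.18 ± 0.06 in the isoflurane arm (adjusted p = 0.153). On average it was 0.17 ± 0.04, a fold of 1.12, with an adjusted p of 0.0636. The average was called with a trend and robust spread (adjusted p = 0.0206) and with array weights (adjusted p = 0.0461). Those settings called 1091 and 1084 features for the average, against 555 without them. The isoflurane effect was called with normexp background correction, at 0.34 (adjusted p = 0.0419), where 1303 features were called. The average was 0.07 under quantile normalization, where its adjusted p was 0.353.

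Lamp2, an abundant glycoprotein of the lysosomal membrane with a part in autophagy, was 2.66, 2.63 and 2.72 in vehicle and 2.83, 2.80 and 2.88 in TBA rats of the CO2-O2 arm. The groups did not overlap there, and the effect was 0.17 ± 0.06 with an adjusted p of 0.277. Under isoflurane it was 2.73, 2.64 and 2.57 against 2.78, 2.71 and 2.65, with overlap and an effect of 0.07 ± 0.06. Lamp1, its close relative and the promoter with the most motif copies above, was 5.6, 5.58 and 5.66 against 5.59, 5.65 and 5.86 in the CO2-O2 arm. It was 5.81, 6.02 and 5.87 against 5.70, 5.89 and 5.80 in the isoflurane arm. The groups overlapped in both arms, and the averaged effect of -0.01 ± 0.06 had an interval of -0.15 to 0.13.

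Mcoln1, the calcium channel that acts upstream of TFEB, was 3.74, 3.64 and 3.78 against 3.74, 3.73 and 3.67 in the CO2-O2 arm, and 3.72, 3.64 and 3.83 against 3.91, 3.90 and 3.73 in the isoflurane arm. Its groups overlapped in both arms, with an averaged effect of 0.06 ± 0.05. Scarb2, the receptor that carries glucocerebrosidase to lysosomes, had an averaged effect of 0.05 ± 0.06.

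Cd68, a lysosomal glycoprotein used as a macrophage marker, was 0.72, 0.71 and 1.01 against 0.67, 0.90 and 0.96 in the CO2-O2 arm, and 0.90, 0.67 and 0.52 against 0.50, 1.49 and 0.57 in the isoflurane arm. TBA isoflurane rat 2 stood far above the rest. The isoflurane effect was 0.16 ± 0.23 with that rat and -0.16 ± 0.14 without it. A second Cd68 probe gave 0.3 in the isoflurane arm, and -0.05 in the CO2-O2 arm where the first gave 0.03. In TBA isoflurane rat 2 Aif1, another macrophage marker, was 3.80 beside 2.96 and 2.97 in rats 1 and 3. C1qa was 2.84 beside 1.80 and 2.27. Of the macrophage markers tested, only Mrc1 and Cd163 were not highest in that rat. Mrc1 was -2.14 beside -2.54 and -1.31, and Cd163 was lowest, at -6.47 beside -5.88 and -5.85. The mean level over the 11 macrophage markers tested of 12 listed was -0.10 in that rat and -0.80 and -0.42 in rats 1 and 3. Over the groups it ran from -0.31 to 0.02 in vehicle CO2-O2, -0.26 to 0.10 in TBA CO2-O2, -0.42 to -0.34 in vehicle isoflurane and -0.80 to -0.10 in TBA isoflurane rats. Of the defining markers, Adgre1 and Csf1r were well above background on 12 arrays, Itgam on 5 and Cd163 on 4. The dim Itgam and Cd163 enter these means, and Itgam was -4.52 in TBA isoflurane rat 2 beside -6.77 and -5.97 in rats 1 and 3. The part of macrophages in the Cd68 value was not tested.

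The regulators were Grn, the precursor of granulins that is sorted to lysosomes, and Tfeb. Tfeb was -1.07, -0.82 and -1.01 against -0.88, -0.71 and -0.86 in the CO2-O2 arm and -0.79, -0.69 and -0.86 against -0.71, -0.63 and -0.71 in the isoflurane arm. The groups overlapped in both arms, and the averaged effect was 0.12 ± 0.06 with an adjusted p of 0.289. A second Tfeb probe gave 0.04 on average, with opposite signs in the 2 arms. Grn was 4.14, 4.09 and 4.12 against 4.00, 4.10 and 4.19, and 4.41, 4.45 and 4.22 against 4.04, 4.31 and 4.02, with an isoflurane effect of -0.23 ± 0.09 (adjusted p = 0.236). TFEB is controlled through phosphorylation and movement to the nucleus, which an mRNA array does not measure.

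**Figure D2:**
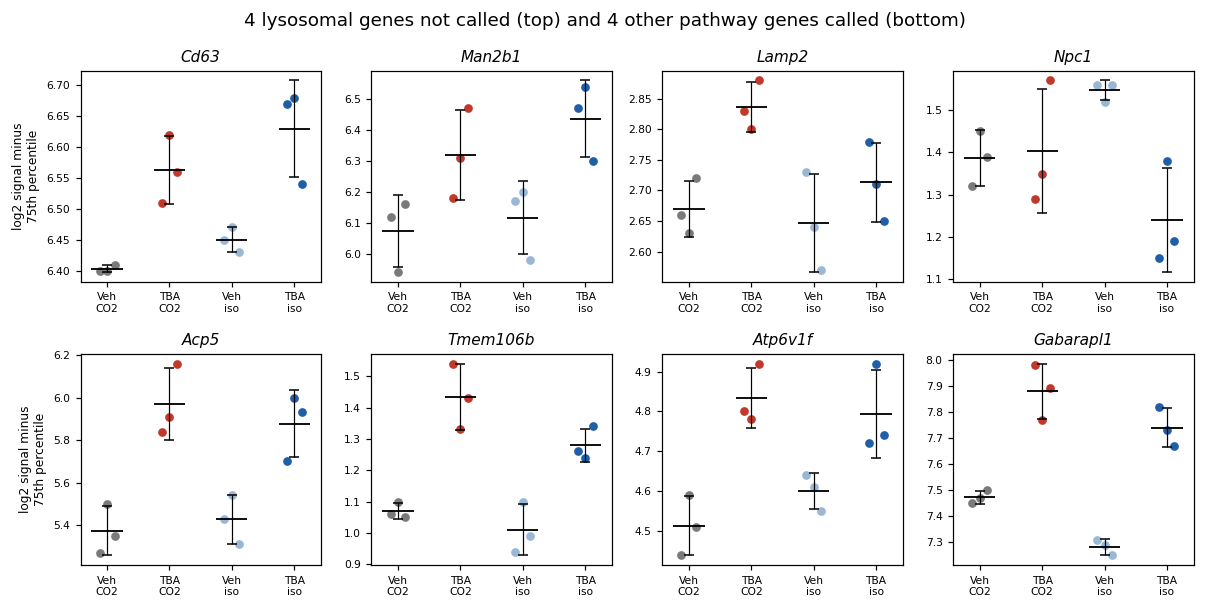
Log2 signal minus the array's 75th percentile (y axis, not from 0) for 4 lysosomal genes that were not called (top) and 4 other genes of the pathway that were called for the average of both arms (bottom), with 1 point per rat and the mean ± SD of 3 rats. Cd63 and Man2b1 are higher in every TBA rat of each arm, Npc1 is lower in the TBA rats of the isoflurane arm, and Lamp2 is higher in those of the CO2-O2 arm.

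Groups that do not overlap were counted for the whole list. TBA and vehicle rats of the CO2-O2 arm were fully apart for 6 of 30 members (20%, against 21.0% of all features). They were Tpp1, Man2b1, Neu1, Lipa, Lamp2 and Cd63, each higher in TBA rats, a direction that 11.9% of all features had. Under isoflurane it was 4 members (13.3% against 24.0%), with Ctsc, Man2b1 and Cd63 higher (14.2% of all features) and Npc1 lower (9.72%). Man2b1 and Cd63 were apart in both arms, higher each time, which is 6.67% of the members. In all, 4.28% of features were apart the same way in both arms, and 3.09% were so and higher.

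Single rats stood apart over the list as a whole. TBA isoflurane rat 2 was the highest of its group for 24 of 30 members (80.0%, against 35.5% of all features), with the median member 0.16 above the vehicle mean, where rats 1 and 3 had -0.05 and -0.06. TBA CO2-O2 rat 3 was the highest of its group for 18 members (60% against 35.5%), and TBA CO2-O2 rat 1 the lowest for 22 (73.3% against 32.6%). Vehicle rats also stood apart: vehicle isoflurane rat 3 was the lowest for 18 members (60% against 31.3%), vehicle CO2-O2 rat 3 the highest for 16 (53.3% against 32.2%) and vehicle isoflurane rat 1 the highest for 15 (50% against 34.7%). The median of the isoflurane arm went from 0.07 to -0.04 without TBA isoflurane rat 2. In that rat the proximal tubule markers had a mean level of 5.83, the lowest of its group, beside 6.27 and 5.96, and the macrophage markers the highest of theirs. Over the groups the tubule markers ran from 5.97 to 6.02 in vehicle CO2-O2, 5.86 to 6.07 in TBA CO2-O2, 5.67 to 5.81 in vehicle isoflurane and 5.83 to 6.27 in TBA isoflurane rats. In the isoflurane arm 0 of those 12 markers were called and 8 had an unadjusted p under 0.05 (17.8% of all features), with a median effect of 0.28. In the CO2-O2 arm 1 of 12 was called, higher in TBA rats (0.149% of all features were called in either direction). The effects there ran from -1.19 to 0.8, with a median of 0.03. For the average 2 of 12 were called, both higher, with effects from -0.44 to 0.68 and a median of 0.19. Of 4 thick ascending limb markers tested 1 was called for the average, lower in TBA rats. Of all features 1.87% were called for the average. The part of either cell type in the lysosomal list's level was not tested.

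**Figure D3:**
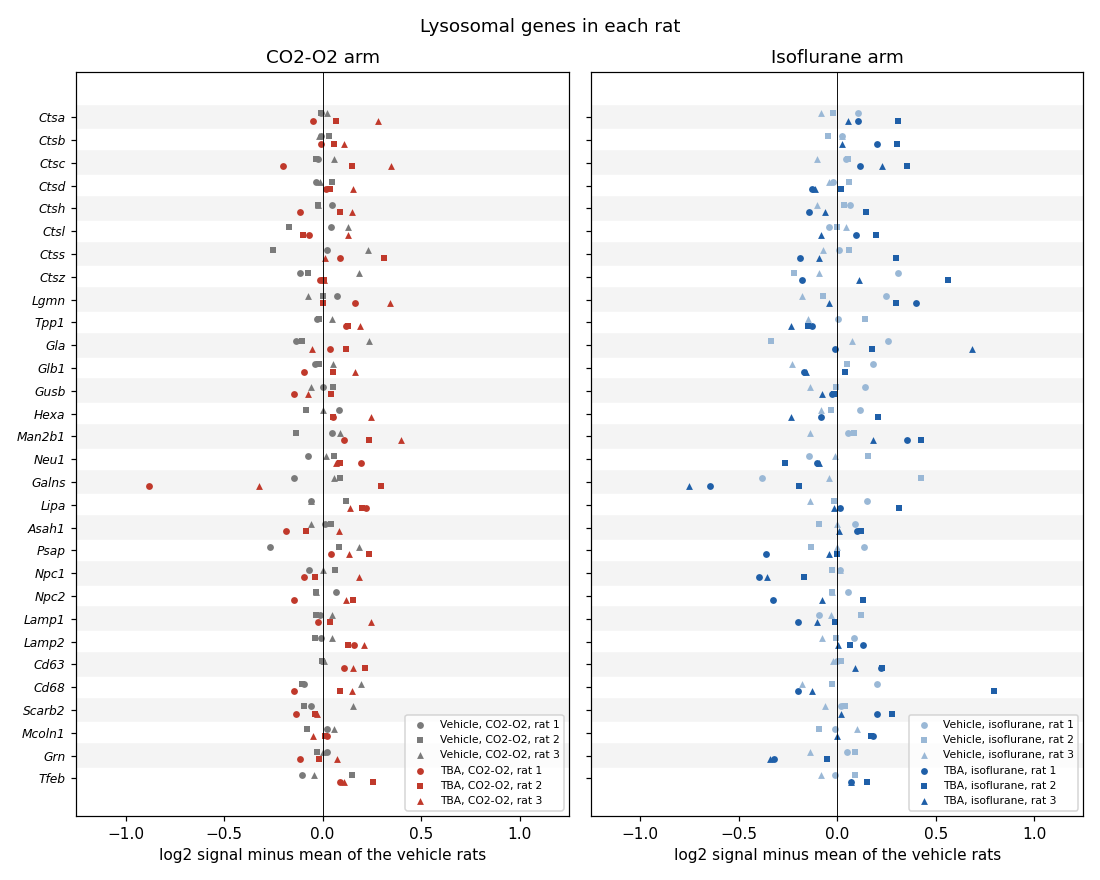
Log2 signal of each of 30 lysosomal genes in each rat, as the distance from the mean of the 3 vehicle rats of the same arm (x axis), with circles, squares and triangles for rats 1, 2 and 3. TBA isoflurane rat 2 (dark squares, right) lies furthest right in its group for 24 of 30 genes.

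The arrays lay on 3 slides. TBA CO2-O2 rat 3 shared slide 1 with the vehicle CO2-O2 rats, TBA CO2-O2 rats 1 and 2 were on slide 2 with the vehicle isoflurane rats, and the TBA isoflurane rats filled slide 3. Slide 1 was scanned on another day than the rest. With slide as a fixed term, or within slide 1, the member median in the CO2-O2 arm was 0.14 with 0 members called, and that value rests on the 1 TBA rat of slide 1. Man2b1 was then 0.39 ± 0.13 and Cd63 0.15 ± 0.08. Under isoflurane slide and treatment cannot be told apart, so the average of both arms could not be fitted with slide as a fixed term. All 6 arrays of the isoflurane arm were scanned on day 2, so the TBA difference there lies within 1 day. With the spread taken from the day 2 arrays alone, Npc1 had an adjusted p of 0.163 in that arm.

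The anesthetic comparison asked how the same genes differed between isoflurane and CO2-O2. In vehicle rats 0 of 30 members were called, against 31 features (0.105%), and 6 members had an unadjusted p under 0.05 (20% against 18.7%). Fully apart were 8 members (26.7% against 29.1%), Ctsh, Hexa, Neu1, Galns, Npc1, Lamp1, Cd63 and Grn, all higher under isoflurane (14.9% of all features). Neu1 had the lowest p at 0.32 ± 0.09 (adjusted p = 0.121), from 2.51, 2.64 and 2.60 under CO2-O2 to 2.76, 3.06 and 2.89 under isoflurane. Hexa, the alpha chain of beta-hexosaminidase, went from 3.23, 3.06 and 3.15 to 3.59, 3.44 and 3.39 (0.33 ± 0.11, adjusted p = 0.173). Lamp1, with the values given above, differed by 0.28 ± 0.09 (adjusted p = 0.149). It was called with normexp background correction alone, at 0.42 and an adjusted p of 0.0318, where 847 features were called. Grn differed by 0.24 ± 0.09 (adjusted p = 0.216). The member median was 0.05, and -0.01 under median scaling, and these groups lay on different slides scanned on different days. With slide as a fixed term, which rests on the TBA CO2-O2 rats present on both slides, Lamp1 was at 0.52 (adjusted p = 0.231), Hexa at 0.52 (adjusted p = 0.239) and Neu1 at 0.24 (adjusted p = 0.621).

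In TBA rats 0 of 30 members were called between the anesthetics, against 2 features (0.00676%), and 1 member had an unadjusted p under 0.05 (3.33% against 10.8%). That member was Tpp1, at -0.18 ± 0.08, one of 3 that were fully apart (10% against 15.1%). Lamp2 was also lower under isoflurane, at -0.12 ± 0.06. Gusb, a beta-glucuronidase, was higher, from 0.16, 0.35 and 0.23 to 0.42, 0.43 and 0.37 (0.16 ± 0.08, adjusted p = 0.520). The TBA CO2-O2 rats were on slides 1 and 2 and the TBA isoflurane rats on slide 3. Anesthetic and slide thus cannot be told apart in TBA rats, which also enter the comparisons that follow. Averaged over both treatments, 0 members were called against 85 features (0.287%), with 7 at an unadjusted p under 0.05 (23.3% against 17.2%). For the difference of the TBA effect between the arms, 0 members and 0 of all features were called (0.0%), and at an unadjusted p under 0.05 it was 2 members, Tpp1 and Npc1 (6.67%, against 12.1%).

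The rest of the lysosomal pathway was read from 8 further lists, of 139 genes, 123 of them tested. For the averaged TBA effect 4 of 123 were called (3.25%, against 1.87% of all features), 4 higher (1.38% of all features) and 0 lower. At an unadjusted p under 0.05 it was 29 (23.6%, against 19.0%). The count of proximal tubule markers called for the average is given above, and the part of proximal tubule cells in these values was not tested. Lrp2 and Cubn are in both the marker list and the pathway lists. In the CO2-O2 arm 0 of 123 were called and 20 had an unadjusted p under 0.05 (16.3% against 14.3%), and in the isoflurane arm 1, which was higher (0.25% of all features). In the other 4 comparisons 0 were called. The called genes came from 4 lists, which were hydrolases, membrane transporters and channels, the proton pump, and autophagy.

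Gabarapl1, an Atg8 family protein that coats autophagosomes, was 7.45, 7.47 and 7.50 in vehicle and 7.98, 7.77 and 7.89 in TBA rats of the CO2-O2 arm. It was 7.31, 7.29 and 7.25 against 7.82, 7.73 and 7.67 in the isoflurane arm, and every TBA rat was above all 6 vehicle rats. The average rose by 0.43 ± 0.05 with an adjusted p of 0.00587. It was called under each of 24 alternatives (adjusted p from 0.000836 to 0.0269). Slide entered those 24 only as a random block, never as a fixed term, because the TBA isoflurane rats filled slide 3. The same holds for the 24 alternatives of Acp5, Tmem106b and Atp6v1f below. Under isoflurane Gabarapl1 rose by 0.46 ± 0.07 (adjusted p = 0.0363), and that call was lost in 16 of 26 alternatives, where adjusted p ran up to 0.199. Those included the loss of any 1 rat of the isoflurane arm or of the vehicle CO2-O2 group. Under quantile normalization the isoflurane value was 0.24.

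Acp5, the tartrate-resistant acid phosphatase, was 5.27, 5.50 and 5.35 against 5.84, 5.91 and 6.16, and 5.43, 5.54 and 5.31 against 5.70, 6 and 5.93. The groups were apart in both arms, and the average rose by 0.53 ± 0.08 with an adjusted p of 0.0221, lost in 5 of 24 alternatives, up to 0.0629. Those were no filter on dim probes and the loss of vehicle CO2-O2 rat 1 or 3, vehicle isoflurane rat 3 or TBA isoflurane rat 2. Tmem106b, a membrane protein of lysosomes, was 1.06, 1.1 and 1.05 against 1.54, 1.33 and 1.43, and 0.94, 1.1 and 0.99 against 1.26, 1.24 and 1.34. Its average rose by 0.32 ± 0.05 (adjusted p = 0.0232), lost in 8 of 24 alternatives, up to 0.0812. The loss of any of the same 4 rats or of TBA CO2-O2 rat 1 was among them.

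Atp6v1f, the F subunit of the V-ATPase that acidifies lysosomes, was 4.44, 4.59 and 4.51 against 4.80, 4.78 and 4.92, and 4.64, 4.61 and 4.55 against 4.72, 4.92 and 4.74. Its average rose by 0.26 ± 0.05 (adjusted p = 0.0430), lost in 16 of 24 alternatives, up to 0.128. The loss of any 1 rat other than TBA CO2-O2 rat 3 was among them.

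Each list around these genes was mostly uncalled. Of 29 other lysosomal hydrolases and cofactors tested, Acp5 was called, the median averaged effect was 0.01, and Hyal1, a hyaluronidase, was at 0.40 ± 0.11 (adjusted p = 0.101). Of 17 transporters and channels only Tmem106b was called, with a median of -0.03. Of 16 V-ATPase subunits Atp6v1f was called, 11 were above 0 and the median was 0.09, and Atp6v0e1 came next at 0.19 ± 0.04 (adjusted p = 0.0537). Of 22 genes of autophagy and fusion Gabarapl1 was called, 14 were above 0 and the median was 0.06, while Vps33a, of the tethering complexes, was at -0.21 ± 0.05 (adjusted p = 0.0810). In these 4 lists no other gene passed.

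In the remaining 4 lists 0 genes were called for the average. The 12 sorting genes had a median of 0.07, with Gga1, an adaptor at the trans-Golgi, at 0.13 ± 0.05 (adjusted p = 0.166). The 15 TFE and mTORC1 genes had a median of 0.01, with Lamtor4, of the Ragulator complex, at 0.11 ± 0.04 (adjusted p = 0.176). The 4 cathepsin inhibitors had a median of -0.05, with Cstb at -0.19 ± 0.12 (adjusted p = 0.427). The 8 endocytic receptors and partners had a median of 0.04, and Cubn, which encodes cubilin and is also among the tubule markers, was at 0.23 ± 0.07 (adjusted p = 0.121).

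**Figure D4:**
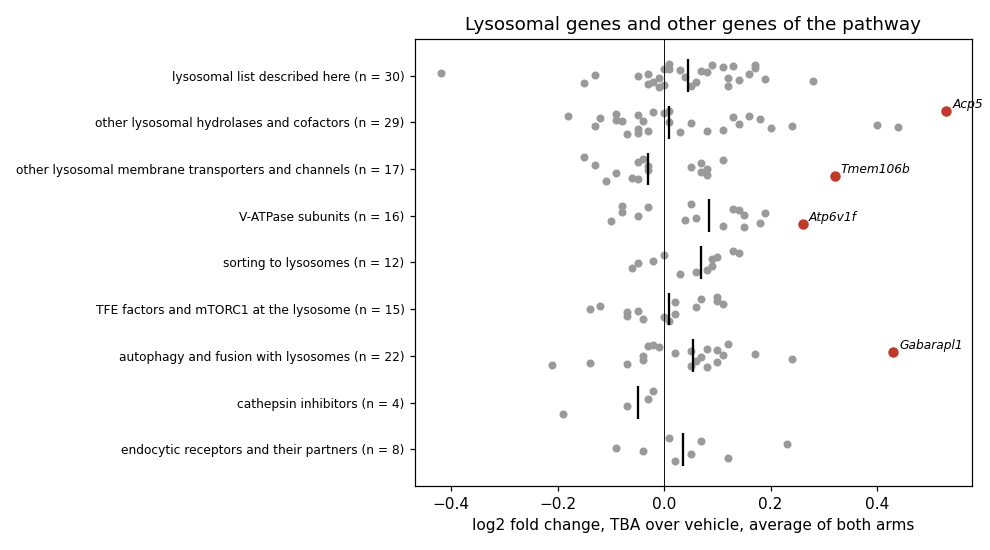
Averaged TBA effect (x axis, log2 fold change) of 30 lysosomal genes and of 123 other genes of the pathway in 8 lists, 1 point per gene, with black bars for list medians. Only Acp5, Tmem106b, Atp6v1f and Gabarapl1 (red) were called, and no point of the first row was.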

How the data were processed

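Renal cortex RNA of 12 rats was labelled from 0.2 ug, 1 array per rat, per the labels' protocols. The deposited scanner files hold spot intensity from Agilent Feature Extraction 10.7, per the submitters' processing notes; it is background-subtracted within each array and carries no scaling across arrays, per the file headers. The submitters' deposited table holds a ratio of that intensity to the array's 75th percentile, a scale found from the values, with column medians of 0.101 to 0.107; each column matched another replicate of its group (r = 1.0), and rats are numbered by their scanner file. Its values are linear and uncentred.

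Probe accessions were named through the RefSeq table of GRCr8: 27460 of 61657 probes had 1 symbol and 34197 none. From the deposited intensity, log2 minus the array's 75th percentile was computed. Outlier-flagged spots were left out and 0 spots were saturated. A probe was kept if every array of some group showed it well above background (40216 probes), and the brightest per symbol was used, giving 29603 features. Group means were fitted over all 12 arrays with limma 3.58.1 in R 4.3.3 (lmFit, eBayes, 8 residual and 1.89 prior degrees of freedom). The fit was tested on simulated data. A log2 change of 0.5 was recovered there for 35.5% of changed features in the CO2-O2 arm. It was 34.9% in the isoflurane arm and 61.2% for the average. The number of arrays limits the precision.

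Members, pathway lists and cell type markers were chosen with earlier results of these data known. Values per rat are given for Ctsb, Ctsd, Ctsl, Lamp1, Lamp2, Cd68, Lgmn, Mcoln1 and Tfeb, for the lowest-p members whose groups do not overlap, and for pathway genes that were called. Alternatives were normexp (offset 50), quantile and median scaling, the submitters' table, other filters and probe summaries, slide and scan day terms, a replicate block, fewer arrays, trend and robust spread, array weights, and each array left out.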

Additional observations from a re-analysis of the deposited data

How the results depend on the processing

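Of 5303 member values under 28 alternatives, 5241 kept their side of the threshold and either their sign or a distance under 1 SE, 55 uncalled values changed sign by 1 SE or more, and 7 passed the threshold. With 0 calls to lose, none was lost. With normexp background correction 2 members were called in the isoflurane arm, Ctsd at -0.23 (adjusted p = 0.0484) and Cd63 at 0.34 (adjusted p = 0.0419). There 1303 of 29603 features were called. It also called 1 member for the average (977 features) and 1 between anesthetics in vehicle rats (847 features). For the average, 2 members were called with a trend and robust spread (1091 features) and 1 with array weights (1084 features).

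The member median in the CO2-O2 arm moved to 0.137 with slide or scan day as a fixed term and within slide 1, and between anesthetics in vehicle rats to 0.176 with either term. In the isoflurane arm it was -0.052 under quantile normalization. Leaving out each array in turn gave -0.042 (without TBA isoflurane rat 2) to 0.088 there, 0.012 (without TBA CO2-O2 rat 3) to 0.114 in the CO2-O2 arm, -0.004 to 0.075 for the average, 0.034 to 0.082 between anesthetics in vehicle rats, and 0 members called in every comparison. Of the other pathway genes, 1 was called for the average with no filter on dim probes, 2 with scan day as a fixed term, 7 with a trend and robust spread and 1 to 4 with 1 array left out. It was 1 without vehicle CO2-O2 rat 1 or 3, vehicle isoflurane rat 3 or TBA isoflurane rat 2. Over all features the calls went from 44 to between 1 (within slide 1) and 162 (1 array left out) in the CO2-O2 arm, from 117 to between 0 (within scan day 2, among others) and 1303 (normexp) in the isoflurane arm, from 555 to between 63 (no filter on dim probes) and 1091 (trend and robust spread) for the average, and from 31 to between 0 and 847 (normexp) between anesthetics in vehicle rats. Higher calls were 74 of 117 in the isoflurane arm and 255 of 307 under median scaling, 17 of 31 against 17 of 52 between anesthetics in vehicle rats, and 53 of 85 against 49 of 95 averaged over treatments. The cause of these shifts was not tested.

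Same-numbered rats of different groups correlated weakly in their deviations from the group means. Of 18 such pairs, 3 were above 0.1 (r from -0.133 to 0.133), which cannot show whether the rats were paired. A replicate block left 0 members called in each comparison, 2 pathway genes for the average, and 3, 0 and 166 features in the CO2-O2 arm, the isoflurane arm and for the average.

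The limits are 3 rats a group, slides that differ between groups, and a measure of mRNA with none of protein or enzyme activity.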
